A study of Mus musculus with 2 samples.

Results

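The genes of heterotrimeric G protein subunits and of regulators of G protein signalling (RGS) were examined in total RNA of the mouse hippocampus. Members were taken by symbol (Gna, Gnb, Gng or Rgs followed by their letters and numbers), with Gnas and Rgs14 left out by the rule. This gave 50 of the 55536 annotated genes: 15 alpha, 5 beta and 10 gamma subunits and 20 RGS proteins. The series holds 2 libraries of 1 group, so levels are described and no conditions are compared. Both came from hippocampus tissue of male mice of the hybrid strain B6CASTF1/J at 25 days of age, with no genotype change or treatment named. The labels call the libraries biological replicates 1 and 2 with separate biosamples, yet list the same donor identifier for both. The spread between them may therefore be partly technical. ERCC spike-ins, synthetic RNAs of known amount, had been added, and 300 ng of RNA went into each library.

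A G protein is a switch inside the cell membrane. A receptor bound by its ligand makes the alpha subunit exchange GDP for GTP, upon which alpha and the paired beta and gamma subunits act on separate targets. RGS proteins end the signal by speeding up GTP hydrolysis on alpha. In hippocampal neurons the Gi and Go alpha subunits carry signals from GABA-B, adenosine A1, cannabinoid and many other inhibitory receptors, and beta-gamma dimers released with them open inwardly rectifying potassium channels and restrain calcium channels. Gq and G11 activate phospholipase C beta, G12 and G13 act on the actin cytoskeleton, and Golf, a close relative of Gs, stimulates adenylyl cyclase.

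The deposited gene table held 30635891 (replicate 1) and 35713471 (replicate 2) expected counts, or estimated reads, for annotated genes. Members took 107486 and 130975 of these, which was 0.351% and 0.367%. Levels below are TPM, in which reads are divided by effective transcript length and scaled to the same total in each library, and SD values are over n = 2 libraries. Hippocampal markers were present: the 4 excitatory neuron markers summed to 3086 and 3048 TPM, all 3 dentate granule cell markers and both CA1 markers were above 1 TPM. In such bulk tissue, fewer cells of a type and less RNA per cell cannot be told apart.

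At a mean of at least 1 TPM, 39 of 50 members were detected, against 58.9% of all annotated protein-coding genes. At a mean of at least 10 TPM there were 33 members, against 36.8% of protein-coding genes. Detection covered 11 of 15 alpha, 4 of 5 beta, 9 of 10 gamma and 15 of 20 RGS genes. The median level was 53.9 TPM for beta, 44.5 TPM for alpha, 36.2 TPM for gamma and 12.5 TPM for RGS genes. Summed levels were 776 and 797 TPM for alpha, 666 and 698 TPM for beta, 439 and 475 TPM for gamma, and 282 and 291 TPM for RGS genes in replicates 1 and 2. The subunit families thus each stood above the RGS family in both libraries, although the RGS family has the most genes.

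**Figure D1:**
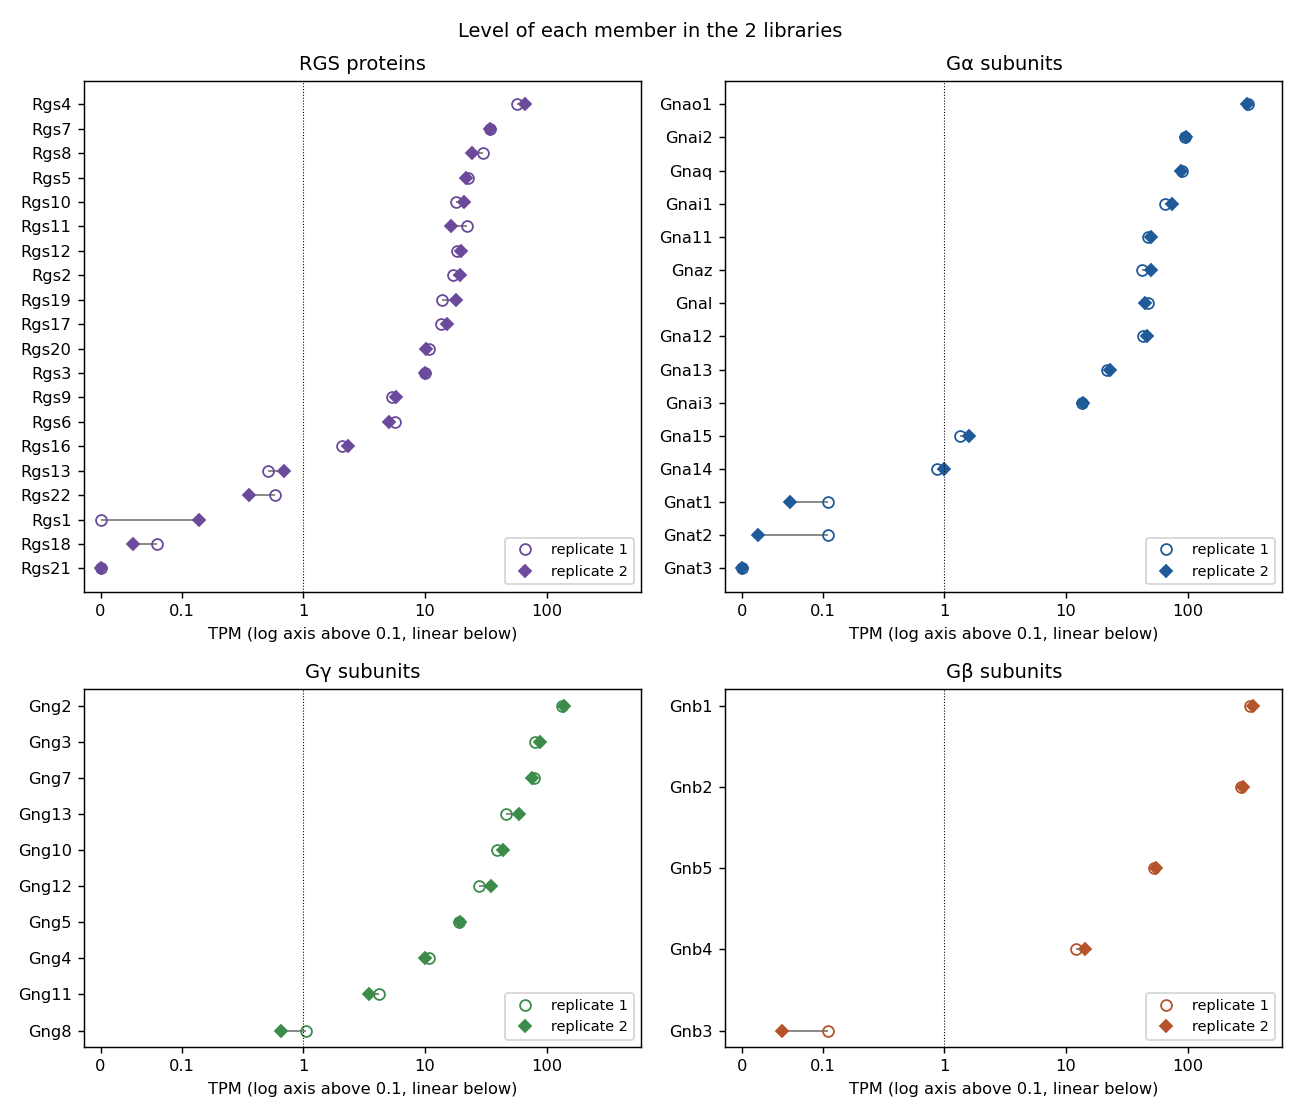
Level of each member in TPM (log axis above 0.1, linear below), 1 panel per family, with an open circle for replicate 1 and a filled diamond for replicate 2, joined by a line, and a dotted line at 1 TPM. The alpha family was led by Gnao1 alone at 310.3 and 309.55 TPM, the beta family by the pair Gnb1 and Gnb2, and the RGS family by Rgs4 at 57.4 and 66.0 TPM.

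The alpha subunits are told apart by their C-terminal ends, the part that contacts the receptor. A cysteine 4 residues from the end is the site at which pertussis toxin modifies and uncouples Gi, Go and transducin, and alpha subunits without it resist the toxin. The last 33 coding bases before the stop codon are shown for the leading transcripts of 7 alpha genes and for a second Gnao1 end, from the GENCODE M21 transcripts (mouse build mm10), 5′ to 3′, with the codon of that position in capitals.
Gnao1-201, chr8:93967020-93967052 (+ strand): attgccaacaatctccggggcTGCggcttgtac
Gnao1-207, chr8:93956217-93956249 (+ strand): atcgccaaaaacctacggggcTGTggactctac
Gnai2-201, chr9:107615638-107615670 (- strand): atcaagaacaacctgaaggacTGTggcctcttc
Gnaz-201, chr10:75015177-75015209 (+ strand): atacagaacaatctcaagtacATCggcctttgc
Gnaq-201, chr19:16383359-16383391 (+ strand): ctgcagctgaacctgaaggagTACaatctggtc
Gna11-201, chr10:81530798-81530830 (- strand): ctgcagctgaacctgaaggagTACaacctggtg
Gna12-201, chr5:140760552-140760584 (- strand): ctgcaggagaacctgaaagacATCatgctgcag
Gna13-201, chr11:109396451-109396483 (+ strand): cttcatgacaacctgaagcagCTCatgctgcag
The capitals are a cysteine codon in both Gnao1 ends and Gnai2, isoleucine in Gnaz and Gna12, tyrosine in Gnaq and Gna11, and leucine in Gna13. The same position was a cysteine codon in Gnai1, Gnai3, Gnat1, Gnat2 and Gnat3. Gnai1-201 and Gnai2-201 shared 78.5% of aligned coding bases, Gnaq-201 and Gna11-201 shared 80.5%, and Gnao1-201 and Gnai2-201 shared 69.8%.

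Gnao1 (chr8:93809966-93969388, + strand), which encodes the Go alpha subunit abundant in neurons, measured 310.3 and 309.55 TPM (mean 309.9 ± 0.544 SD, n = 2). It was the highest alpha gene in both libraries and made up 39.4% ± 0.805 (SD, n = 2) of alpha TPM over the genes examined, which leave out Gnas. Its replicate values did not overlap with those of any other alpha gene.

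The other Gi-class subunits, which inhibit adenylyl cyclase, followed at lower levels. Gnai2 measured 95.0 and 95.9 TPM, and Gnai1 measured 65.1 and 73.9 TPM. Gnai3, the third Gi alpha gene, measured 13.5 and 13.9 TPM. Gnaz, whose product Gz lacks the toxin's cysteine, measured 42.3 and 49.9 TPM. The sum of Gnai1, Gnai2 and Gnai3 stayed below Gnao1, with a Gnao1 ratio to that sum of 1.79 and 1.69 in the 2 libraries. Together the 5 Gi and Go genes made up 67.9% ± 0.252 (SD, n = 2) of alpha TPM. Gnas was left out of this and all other alpha shares.

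Gnaq, which activates phospholipase C beta below metabotropic glutamate and muscarinic receptors, measured 89.6 and 88.2 TPM. Its close copy Gna11 measured 47.0 and 49.8 TPM, and Gnaq stood above it 1.91-fold and 1.77-fold. The other Gq-class genes were near the limit of detection, Gna15 at 1.35 and 1.60 TPM and Gna14 at 0.87 and 1.00 TPM. The class made up 17.8% ± 0.174 (SD, n = 2) of alpha TPM, nearly all of it from Gnaq and Gna11. Gna12 and Gna13 encode the subunits that act on the cytoskeleton. Gna12 measured 42.9 and 46.1 TPM and Gna13 measured 21.6 and 23.1 TPM, a class share of 8.49% ± 0.257 (SD, n = 2).

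Gnal (chr18:67088216-67226792, + strand), which encodes Golf, the stimulatory subunit best known from olfactory and striatal neurons, measured 46.7 and 44.4 TPM. This was 5.79% ± 0.321 (SD, n = 2) of alpha TPM with Gnas left out. Markers of striatal projection neurons were low beside it: Penk stood at 15.3 and 15.6 TPM, Drd1 at 1.82 and 1.76 TPM and Adora2a at 1.05 and 1.62 TPM. Rgs9, itself a member and also a striatal marker, stood at 5.31 and 5.76 TPM. Their part in the Gnal level was not tested.

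The transducins Gnat1 and Gnat2 of rod and cone photoreceptors and gustducin, Gnat3, of taste cells were at the bottom of the family in the RSEM table. Gnat1 had 1 and 3 counts (0.11 and 0.06 TPM) and Gnat2 had 2 and 1 counts (0.11 and 0.02 TPM). The kallisto table instead gave Gnat1 2.19 and 0.811 TPM. It put 100% and 90.2% of this on Gnat1-202, annotated as subject to nonsense-mediated decay, so the tables disagreed on this gene. Gnat3 had 0 counts in both libraries. A count of 0 allows up to 3 counts, or 0.0979 and 0.0840 CPM (counts scaled to library size), for counting error only. Neither of the 2 taste cell markers reached 1 TPM.

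Ordered by mean level, 3 of the 10 neighbouring pairs of detected alpha genes had replicate ranges that overlapped. These were Gna11 with Gnaz, Gnaz with Gnal, and Gnal with Gna12. Among these 4 genes the Gnaz range overlapped all others, while Gna11 lay above Gnal and Gna12. The other 7 neighbouring pairs did not overlap, which with 2 libraries is a weak criterion.

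Beta subunits form propellers that stay bound to a gamma subunit. Gnb1 (chr4:155491361-155559269, + strand) measured 325 and 342 TPM and was the highest member of all, at a mean of 333 ± 11.8 TPM (SD, n = 2). Gnb2 (chr5:137528127-137533510, - strand) measured 276 and 287 TPM. The ranges of these common partners of most gamma subunits did not overlap, and their shares of beta TPM were 48.9% ± 0.113 and 41.3% ± 0.230 (SD, n = 2).

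Gnb5, the atypical beta subunit that pairs with R7 RGS proteins in place of gamma subunits, measured 52.9 and 55.0 TPM. Gnb4, a close relative of Gnb1 and Gnb2, measured 12.03 and 14.2 TPM. Gnb3, the beta subunit of cone photoreceptors, had 4 and 2 counts, or 0.11 and 0.05 TPM. All 3 neighbouring pairs of detected beta genes were separated in both libraries. In coding bases Gnb1 shared 77.0% with Gnb2, 77.0% with Gnb4 and 56.9% with Gnb5.

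How far Gnb1 stood above Gnb2 varied with the measure used. The ratio was 1.18 ± 0.00934 (SD, n = 2) in gene TPM from the table with RSEM columns, 2.19 ± 0.129 in the table with kallisto columns, and 3.05 ± 0.0496 in expected counts. RSEM and kallisto are programs that share reads among overlapping transcripts, the first from an alignment and the second from short matches. In the RSEM table, 52.7% and 52.0% of Gnb2 TPM lay on transcripts annotated as retained intron, against 17.6% and 14.5% in the kallisto table. Such models keep an intron and have no annotated coding frame. Restricted to protein-coding transcripts, a restriction chosen after seeing these values, Gnb1 stood above Gnb2 by 2.30 ± 0.00323 (RSEM) and 1.99 ± 0.108 (kallisto). Gnb1 was above Gnb2 in each of these 5 measures, in both libraries.

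Gamma subunits are small proteins whose C-terminal cysteine carries the lipid that holds beta-gamma at the membrane. The residue after it at the very end sets the lipid: leucine calls for geranylgeranyl, and serine for farnesyl. The last 24 coding bases are shown for the 4 highest gamma genes and for Gng11, the member with another ending, with the cysteine codon in capitals (GENCODE M21, mm10).
Gng2-204, chr14:19875810-19875833 (- strand): aagaagttcttcTGCgccatcctt
Gng3-201, chr19:8838146-8838169 (- strand): aagaagttcttcTGTgcgctcctc
Gng7-204, chr10:80951624-80951647 (- strand): gacaaaaagcctTGCataattctc
Gng13-201, chr17:25719006-25719029 (+ strand): gagaaggccaagTGCaccatccta
Gng11-201, chr6:4008134-4008157 (+ strand): gaaaagggcagcTGTgtcatttca
The last codon was leucine in 9 of the 10 gamma genes and serine in Gng11. Gng11 stood at 4.22 and 3.44 TPM, 0.843% ± 0.168 (SD, n = 2) of gamma TPM over the genes examined. Nearly all RNA of these genes thus came from those with the leucine ending. Gamma genes whose symbols are not Gng followed by a number were not examined. Gng2-204 shared 73.3% of aligned coding bases with Gng4-201, 69.3% with Gng3-201 and 52.3% with Gng13-201.

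Gng2 (chr14:19872559-19977627, - strand), a broadly expressed subunit, led the family at 132 and 140.03 TPM, a share of 29.8% ± 0.5002 (SD, n = 2). Gng3 (chr19:8836933-8839194, - strand), known from neurons, measured 79.9 and 88.7 TPM. Gng7, which in the striatum pairs with Golf, measured 78.5 and 75.2 TPM. The Gng2 range lay above both. Gng3 and Gng7 took 18.4% ± 0.314 and 16.9% ± 1.46 (SD, n = 2) of gamma TPM.

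The order of Gng3 and Gng7 turned with the measure. Their ratio was 1.02 and 1.18 in RSEM TPM, 0.665 and 0.739 in kallisto TPM, and 0.538 and 0.633 in expected counts, a measure without correction for length. Gng2 stayed above Gng3 in all 3 measures, at mean ratios of 1.62, 1.33 and 2.29, but Gng7 stood above Gng2 in kallisto TPM, at 137 and 140.3 against 129 and 127 TPM.

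Gng13, which pairs with beta subunits in taste, olfactory and retinal cells, measured 46.1 and 59.5 TPM. Gng10 measured 38.97 and 43.6 TPM, and Gng12 measured 27.6 and 34.8 TPM. Gng5 measured 19.2 and 19.3 TPM, and Gng4, a relative of Gng2, measured 10.9 and 9.99 TPM. Gng8, known from olfactory and vomeronasal neurons, was below 1 TPM on average at 1.06 and 0.65 TPM. None of the 8 neighbouring pairs of detected gamma genes overlapped in the RSEM table, yet as with Gng3 and Gng7 this order belongs to that table.

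Gng13 was the only detected member whose level differed more than 2-fold between the tables after allowing for the general offset. Kallisto TPM was 1.57-fold above RSEM TPM in the median detected gene of any class, and 1.74% of detected protein-coding genes lay more than 2-fold from that median. Gng13 lay at 0.247 of it, with 18.6 and 22.5 TPM in the kallisto table. The RSEM table put 98.9% of Gng13 on Gng13-201, of 347 bases, and the kallisto table put all of it on Gng13-202, of 719 bases. Exons of Chtf18 on the opposite strand cover 51.6% of the Gng13 exons, and Chtf18 stood at 0.90 and 0.86 TPM. Gng13 had 242 and 367 counts, among the fewest of the members above 10 TPM.

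**Figure D2:**
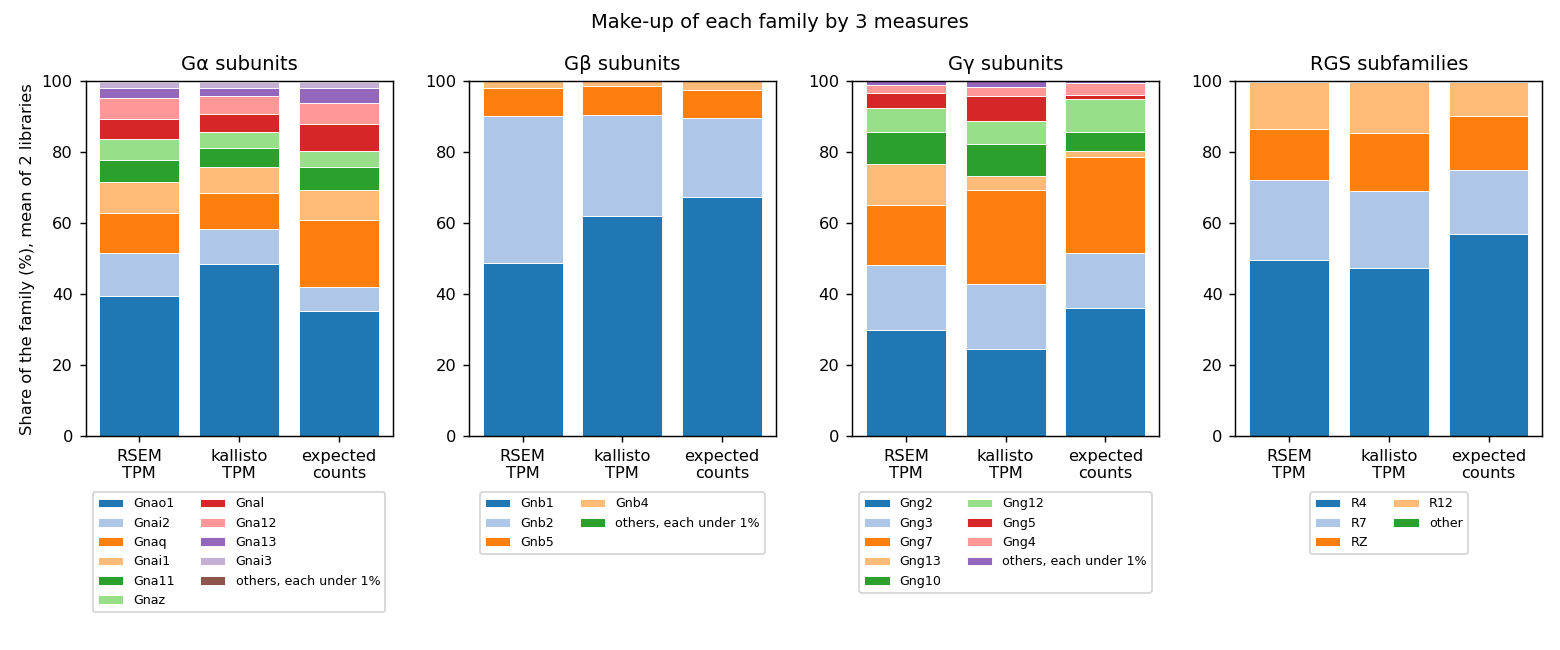
Share of each family's total (%, mean of 2 libraries) taken by each gene, or by each RGS subfamily in the last panel, as stacked bars for RSEM TPM, kallisto TPM and expected counts. Gnao1 led the alpha genes in all 3 bars at 39.4%, 48.6% and 35.4%, while the Gnb1 share moved from 48.9% to 62.1% and 67.5%.

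RGS proteins fall into subfamilies by the domains around the RGS core. Most R4 proteins are small and little more than the core, although Rgs3-202 has 2898 coding bases. R7 proteins carry a gamma-like domain that binds Gnb5. RZ proteins have a cysteine string and favour Gz and Gi, and R12 proteins include the multi-domain Rgs12. By TPM the R4 genes took 49.6% ± 0.206, R7 genes 22.6% ± 1.93, RZ genes 14.2% ± 0.986 and Rgs10 with Rgs12 13.4% ± 0.796 (SD, n = 2) of the RGS total. In R4 proteins that begin with methionine and cysteine, the exposed cysteine makes the protein a target of oxygen-dependent degradation, as known for Rgs4, Rgs5 and Rgs16. The first 30 coding bases of these genes and of Rgs2 are shown to compare that position, with codon 2 in capitals (GENCODE M21, mm10).
Rgs4-201, chr1:169747494-169747523 (- strand): atgTGCaaaggacttgcaggtctgccggct
Rgs5-201, chr1:169655578-169655607 (+ strand): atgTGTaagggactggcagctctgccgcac
Rgs16-201, chr1:153740469-153740498 (+ strand): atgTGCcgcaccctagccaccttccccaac
Rgs2-202, chr1:144004089-144004118 (- strand): atgCAAagtgccatgttcctggctgtccag
Codon 2 was cysteine in 3 of the 10 R4 genes, Rgs4, Rgs5 and Rgs16, and glutamine in Rgs2. By level those genes held ranks 1, 3 and 6 among R4 genes.

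Rgs4 (chr1:169741477-169747642, - strand), a neuronal regulator of Gi, Go and Gq, measured 57.4 and 66.0 TPM and was the highest RGS gene in both libraries. It took 21.5% ± 1.65 (SD, n = 2) of RGS TPM. Rgs8 measured 29.9 and 24.5 TPM. Rgs2, which acts mainly on Gq and is induced by activity, measured 16.9 and 19.3 TPM. Rgs3 and Rgs16 measured a mean of 9.995 and 2.22 TPM.

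Rgs5, a marker of pericytes, measured 22.6 and 21.7 TPM. The 5 mural cell markers beside it summed to 41.5 and 39.5 TPM, led by Vtn at 24.6 and 23.3 TPM, with Pdgfrb at 7.76 and 7.11 TPM, and 4 of the 5 were above 1 TPM. Rgs10, which is enriched in microglia, measured 18.02 and 21.01 TPM. The 4 microglia markers were all above 1 TPM and summed to 81.3 and 82.4 TPM. The part of these cells in the Rgs5 and Rgs10 levels was not tested.

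The remaining R4 genes, known from blood and immune cells or taste tissue, were nearly absent. Rgs13 stood at 0.51 and 0.70 TPM, Rgs18 had 3 and 2 counts, Rgs1 had 0 and 2 counts, and Rgs21 had 0 counts in both libraries. Of the 4 blood leukocyte markers only Ptprc passed 1 TPM, at 1.31 and 1.28 TPM, and Cd3e had 0 and 1 counts. Rgs22, an outlying member known from testis, stood at 0.58 and 0.36 TPM.

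Among R7 genes Rgs7 (chr1:175059087-175492500, - strand) measured 34.2 and 34.3 TPM, the second highest RGS level in the RSEM table. In the kallisto table it stood below Rgs8, at 53.7 and 52.6 against 57.1 and 53.01 TPM. Rgs11 measured 22.2 and 16.4 TPM. Rgs9 and Rgs6 stood at 5.31 and 5.76 and at 5.71 and 5.08 TPM, and their ranges overlapped. Gnb5 over the summed R7 genes was 0.784 and 0.893 in RSEM TPM and 0.889 and 1.09 in kallisto TPM. On protein-coding transcripts alone it was 0.977 and 1.07 (RSEM) and 0.992 and 1.17 (kallisto). Of the membrane anchors of R7 proteins, Rgs7bp stood at 63.6 and 63.4 TPM and Gpr158 at 33.6 and 33.6 TPM, whereas the retinal anchors Rgs9bp and Gpr179 had means of 0.14 and 0.065 TPM.

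Rgs12, which binds active Gi and Ras proteins, measured 18.2 and 19.6 TPM. The RZ gene Rgs19 measured 13.7 and 17.8 TPM, Rgs17 measured 13.7 and 15.3 TPM, and Rgs20 measured 10.7 and 10.3 TPM. Of 14 neighbouring pairs of detected RGS genes 6 overlapped, against 22 of 38 when all detected members were ordered together. Of the 6 RGS pairs 5 lay in the run from Rgs10 through Rgs11, Rgs12, Rgs2 and Rgs19 to Rgs17. The other was Rgs9 with Rgs6. Within the run Rgs10 still lay above Rgs19 and Rgs17 in both libraries.

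Rgs11 (chr17:26202951-26211324, + strand) stood out by what its RNA was assigned to. In the RSEM table, 94.5% and 94.7% of its TPM lay on retained-intron transcripts, and the same share was 88.0% and 87.7% in the kallisto table. Its protein-coding transcripts held 1.23 and 0.87 TPM of the 22.2 and 16.4 TPM of the gene, and 0 and 0.998 TPM in the kallisto table. The level of Rgs11 is therefore a level of annotated intron-retaining RNA more than of coding RNA in both tables. With Rgs11, Gnb2 and Gnb4, 3 of the 30 members with several transcripts and at least 10 TPM had at least 50% of their RSEM TPM on such transcripts, against 3.02% of such protein-coding genes. In the kallisto table Rgs11 alone did, with a background of 3.21%. Exons of Arhgdig, read from the opposite strand at 30.6 and 34.5 TPM, cover 3.28% of the Rgs11 exons.

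**Figure D3:**
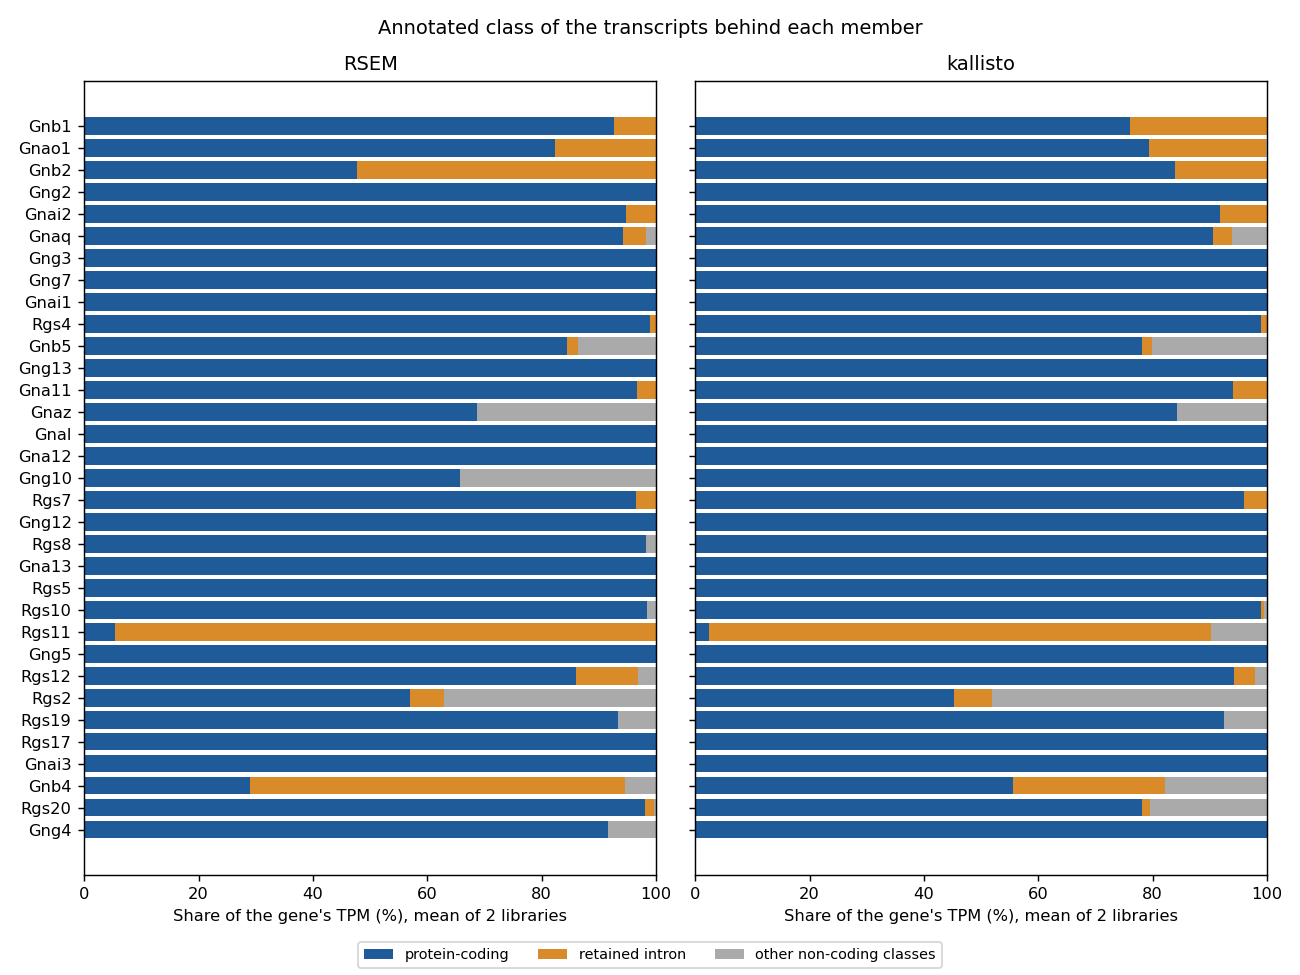
Share of each gene's TPM (%, mean of 2 libraries) on protein-coding, retained-intron and other non-coding transcripts for the 33 members at 10 TPM or more, ordered by level, in the RSEM (left) and kallisto (right) tables. Rgs11 was mostly retained intron in both panels, while Gnb2 and Gnb4 were so only in the left panel.

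Over the 33 members at 10 TPM or more, the median share of TPM on protein-coding transcripts was 98.1% in the RSEM table and 98.9% in the kallisto table. Members whose annotated models are all protein-coding, such as Gng2, Gnal and Rgs17, have 100% by construction. Members without an annotated retained-intron model likewise cannot show such a share. At least 10% retained intron was seen in 5 of the 30 members with several transcripts in each table, 4 of them shared, against 34.2% (RSEM) and 34.6% (kallisto) of such protein-coding genes. Gnao1 had 19.5% and 15.7% (RSEM) and 21.7% and 19.3% (kallisto). Gnb4 had 62.6% and 68.7% in the RSEM table and 12.5% and 40.6% in the kallisto table, so its make-up was not settled even between replicates. With TPM pooled over all members, the retained-intron share in the RSEM table was 13.1% in replicate 1 and 11.8% in replicate 2. Over all protein-coding genes it was 8.44% and 6.61%. Abundant genes weigh heavily in a pooled share, among them Gnb2, with 52.7% and 52.0% retained intron in that table. The kallisto table gave 13.01% and 11.2% for members and 9.24% and 7.73% for protein-coding genes. Both sets thus had less in replicate 2.

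The leading transcript, that with the highest mean TPM, was the same in both tables in 25 of the 33 members at 10 TPM or more. Among the 30 with several transcripts this was 22, or 73.3%, near the 75.3% of such protein-coding genes. The leading RSEM transcript was protein-coding in 30 of the 33, against 93.0% of such genes. The 3 exceptions were Gnb2-213, Rgs11-205 and Gnb4-207, all retained intron.

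Gnao1 is known for a pair of protein forms, GoA and GoB, that differ in their last coding exons. Gnao1-201 and Gnao1-203 share the first end printed for Gnao1 and Gnao1-207 has the second, 8 of 33 bases apart. In the RSEM table Gnao1-201 held 36.3% and 38.1% of the gene's TPM, Gnao1-203 held 28.6% and 29.9%, and Gnao1-207 held 11.6% and 10.5%. The first end exceeded the second 5.58-fold and 6.46-fold in RSEM TPM and 5.38-fold and 6.15-fold in kallisto TPM. In expected counts, which favour the longer Gnao1-207, it was 3.16-fold and 3.66-fold. The tables differed on the leading transcript, for which kallisto named Gnao1-206, an incomplete model of 741 bases, at 27.1% ± 2.50 (SD, n = 2).

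Gnb5 has a short form and a long form with added N-terminal sequence known from the retina. In the RSEM table Gnb5-206, with 1059 coding bases, held 79.4% ± 2.64 of its TPM, and the transcripts with 1185 coding bases, Gnb5-201 and Gnb5-202, held 4.26% ± 2.33 and 0.842% ± 1.19 (SD, n = 2). In the kallisto table Gnb5-202 led with 39.5% ± 1.40 and Gnb5-206 held 36.4% ± 1.93. Which form was more abundant could not be settled from these files.

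Gnal-201, with 1344 coding bases, held 60.2% ± 1.23 (SD, n = 2) of Gnal TPM, and Gnal-204 and Gnal-202, each with 1143 coding bases, held 29.5% and 5.96%. The longer form stood above the shorter ones 1.70-fold in RSEM TPM, 1.27-fold in kallisto TPM and 6.16-fold in expected counts. Rgs4 came from 1 transcript, Rgs4-201, at 98.99% ± 0.519 (RSEM) and 98.6% ± 0.752 (kallisto). Rgs7-206 held 58.5% ± 3.84, Rgs7-207 held 21.5% ± 2.04 and Rgs7-203 held 16.6% ± 0.285 of Rgs7 TPM, all protein-coding. Rgs20-201 held 75.6% ± 5.37 in the RSEM table and 39.4% ± 7.38 in the kallisto table.

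Rgs12 has 18 annotated transcripts, not all of which were assigned RNA: Rgs12-214 and Rgs12-217 had 0 TPM in both tables. Rgs12-206, with 2199 coding bases, led at 28.1% ± 1.39 (RSEM) and 47.9% ± 3.83 (kallisto). Rgs12-201, with 4143 coding bases, held 10.7% and 21.9% in the RSEM table and 19.2% and 20.1% in the kallisto table. Rgs12-202, with 4353 coding bases, held 7.05% and 1.53% in the RSEM table and 5.92% and 2.07% in the kallisto table. Rgs12-204, with 2169 coding bases, held a mean of 25.9% in the RSEM table and 8.2e-05% in the kallisto table. The leading model was thus shorter than Rgs12-201 and Rgs12-202 in both tables. The Rgs12-201 share differed between replicates mainly in the RSEM table, and the Rgs12-202 share in both.

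The tables also named other leaders for Gng5, Rgs2 and Gng13. For Gng5 the RSEM leader was Gng5-201 at 99.1% ± 0.409 and the kallisto leader Gng5-203 at 70.7% ± 29.9. For Rgs2 the RSEM leader was Rgs2-202 at 40.4% ± 2.25 and the kallisto leader Rgs2-201, annotated as subject to nonsense-mediated decay, at 48.0% ± 0.195 (SD, n = 2). Within the RSEM table Rgs2-202 led in replicate 1, at 42.02% against 31.8%, and Rgs2-201 led in replicate 2, at 42.2% against 38.8%. The RSEM leader also changed between replicates in Rgs11, from Rgs11-205 to Rgs11-208, which is the kallisto leader. In Gng7 the leader was Gng7-204 in both tables, but 3 near-identical models traded places between replicates: Gng7-201 went from 23.6% to 0.0931%, Gng7-203 from 0.0382% to 23.5% and Gng7-202 from 0.140% to 20.9%. Levels of single Gng7 models were therefore not read further.

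Several members lie side by side in the genome. With a gap under 200 kb there were 10 neighbouring pairs holding 19 members, and levels within a pair were often far apart. Gnaq (chr19:16132831-16387463) and Gna14 (chr19:16435762-16610820) stood at means of 88.9 and 0.935 TPM. Gna11 stood at 48.4 TPM and Gna15, 4498 bases away on chromosome 10, at 1.48 TPM. Gnai2 stood at 95.5 TPM and Gnat1, 39106 bases away on chromosome 9, at 0.085 TPM.

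Gnai3 stood at 13.7 TPM and Gnat2, 5847 bases away on chromosome 3, at 0.065 TPM. On chromosome 1, Rgs8 stood at 27.2 TPM and Rgs16 at 2.22 TPM, and Rgs2 at 18.1 TPM next to Rgs13 at 0.605 TPM and Rgs1 at 0.07 TPM. Rgs5 (chr1:169655501-169695813) and Rgs4 were the pair in which both exceeded 20 TPM, at 22.1 and 61.7 TPM. The order within a pair was the same in both libraries for all 10 pairs.

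**Figure D4:**
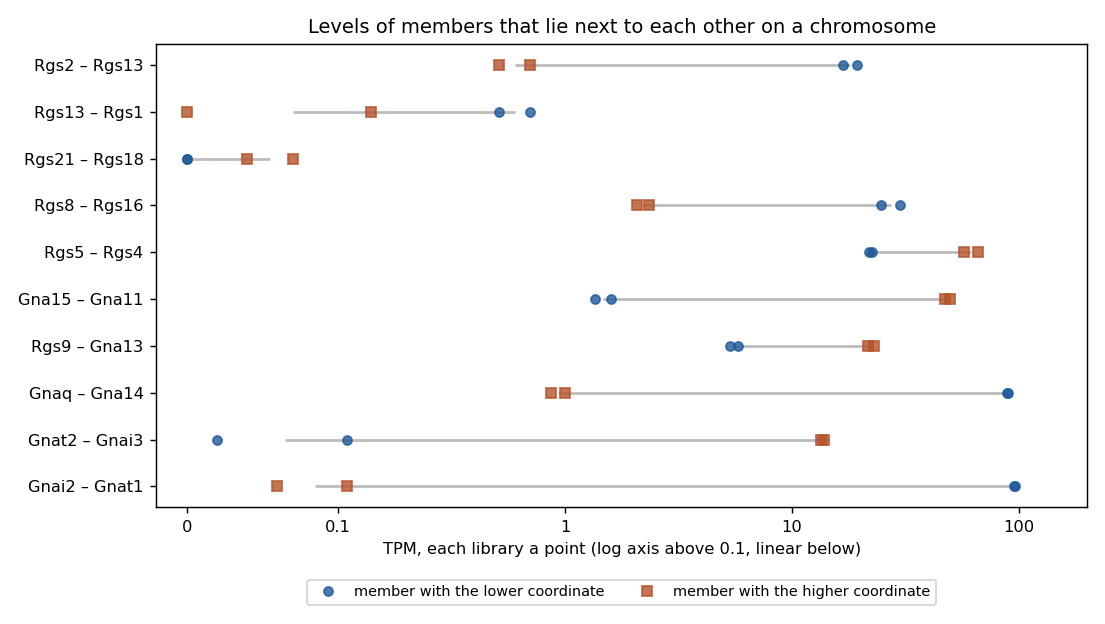
TPM (log axis above 0.1, linear below) of members that lie next to each other, 1 row per pair, with each library a point, circles for the member with the lower coordinate and squares for the other, and a grey line joining the means. Gnaq and Gna14, at 88.9 and 0.935 TPM, and Gnai2 and Gnat1, at 95.5 and 0.085 TPM, are the widest apart among pairs with a gene above 50 TPM.

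The targets of G proteins were examined from lists. Of inwardly rectifying potassium channels opened by beta-gamma 3 of 4 were detected: Kcnj6 at 54.5 and 46.1 TPM, Kcnj3 at 49.3 and 47.5 TPM and Kcnj9 at 29.3 and 27.9 TPM, with Kcnj5, of the heart, at a mean of 0.105 TPM. Of phospholipase C beta genes 3 of 4 were detected, led by Plcb1 at 63.3 and 60.9 TPM, with Plcb4 at a mean of 7.73 and Plcb3 at 6.17 TPM. Of adenylyl cyclases 9 of 10 were detected, led by the calcium-stimulated Adcy1 at 156 and 136 TPM, with Adcy9 at a mean of 40.8 TPM and Adcy2 at 36.5 TPM.

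All 4 exchange factors listed as targets of G12 and G13 were detected, Arhgef12 at a mean of 65.8 TPM, Arhgef1 at 35.1 TPM and Arhgef11 at 28.1 TPM. Of receptor kinases and arrestins, which shut receptors off, 7 of 10 were detected, with Grk2 at 81.6, Arrb1 at 60.5 and Arrb2 at 41.9 TPM. Of chaperones and assembly factors 6 of 7 were detected, with Cct5 at 101 TPM, Cct2 at 75.2 TPM and Ric8a, which folds Gi and Gq alpha subunits, at 36.5 TPM. The photoreceptor chaperone Pdc had 0 counts. Of 9 GoLoco and other receptor-independent regulators 7 were detected, with Rap1gap at 116 TPM, Gprin1 at 67.0 TPM and Ccdc88a at 27.2 TPM. Of the R7 anchors 2 of 4 were detected. The undetected genes included those known from photoreceptors: Grk1, Arr3, Sag, Pdc, Rgs9bp and Gpr179 all had means below 1 TPM, and Sag stood at 1.08 and 0.72 TPM.

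The replicates were compared by the ratio of scaled counts, replicate 2 over replicate 1, after TMM scaling. Of the 37 members with a mean of at least 100 expected counts, 0 differed by more than 1.5-fold, against 2.31% of all annotated genes and 0.630% of protein-coding genes with that count. No test across conditions exists here, so these counts carry no p-value. The median log2 ratio was 0.12 over members and 0.040 over all genes, and 28 of the 37 lay above 0, against 60.7% of all genes and 62.2% of protein-coding genes. The median size of the log2 ratio was 0.14 for members and 0.11 for all genes.

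The highest log2 ratios were those of Gng13 at 0.41, Rgs4 and Rgs17 at 0.24 each, Gnai1 at 0.23 and Rgs10 at 0.22. The lowest were those of Rgs11 at -0.44, Rgs20 at -0.11, Rgs6 at -0.073, Rgs3 at -0.045 and Gng7 at -0.042. The extremes correspond to 242 and 367 counts for Gng13 and 759 and 640 counts for Rgs11. On this scale, though not under scaling to the spike-ins, 9 of 10 alpha, 7 of 8 gamma, 3 of 4 beta and 9 of 15 RGS genes were higher in replicate 2. The same held for 60.7% of all genes. With spike-in scaling the median log2 ratio was -0.089 for members and -0.17 for all genes, so both medians were lower in replicate 2. On that scale 1 member, Rgs11, passed 1.5-fold, against 4.41% of all genes.

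**Figure D5:**
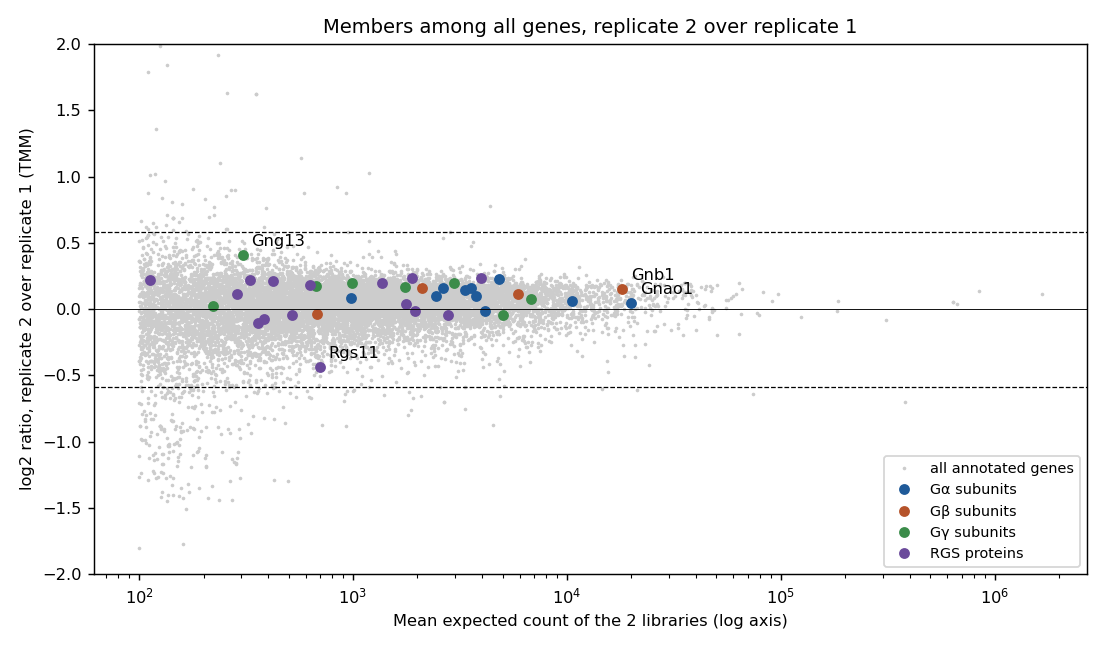
Log2 ratio of replicate 2 over replicate 1 after TMM scaling against the mean expected count (log axis), with all annotated genes of at least 100 counts in grey and the 37 members coloured by family, and dashed lines at 1.5-fold. Members all lie between the dashed lines, from Rgs11 at -0.44 to Gng13 at 0.41, and 7 genes that are not members lie outside the plotted range of 2 in either direction.

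The deposited posterior SD of the count, which is above 0 where reads are shared between genes, was 0 in both libraries for 46 of 50 members. Among detected members it was 0 in 35 of 39, against 82.2% of detected protein-coding genes. It was highest for Gng10, at 22.1 and 7.24 counts of 859 and 1122. Exons of the readthrough model Gm20503 cover 72.0% of the Gng10 exons on the same strand, and that model stood at 2.53 and 0 TPM. Gng10 and Gnb2 overlap an exon of another gene on the same strand, and several other members do so on the opposite strand only. The share of Gng3 exons under the opposite-strand gene Bscl2, at 43.7 and 47.6 TPM, was 24.2%. The deposited notes list signal tracks split by strand but do not say whether gene counting used strand, so reads of such opposite-strand partners may be mixed.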

How the data were processed

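Total RNA of 2 hippocampus libraries had been quantified on mouse build mm10 with GENCODE M21, per the deposited text notes. The aligner and the versions of all programs: not given in the sources used here. The authors deposited expected counts and TPM per gene and transcript in tables with RSEM columns, a second transcript table with estimated counts and TPM in kallisto columns, and a posterior standard deviation of each gene's count, used here as a score in reads. TPM was used as deposited, with all rows, spike-ins included, in its total. Rows that name no gene (numbered entries) held 6 and 2 counts, and spike-ins held 0.367% and 0.414% of counts.

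Members were chosen by symbol, taken from the transcript names and joined by gene identifier. The members and the gene lists were chosen with earlier results of these data known. With 1 group of 2 libraries no test was run. Levels are given for members at 10 TPM or more and for every alpha and beta gene. Members below 1 TPM are named, and the others are given by count and range, except Rgs3, Rgs6, Rgs9, Rgs16 and Gng11, which were named after their values were seen. Of each pathway list the 3 highest genes were named, and of replicate ratios the 5 highest and 5 lowest. The receptor kinase list held 2 older symbols of Grk2 and Grk3, which were counted once.

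Replicate ratios used expected counts with 0.5 added and TMM factors from edgeR 4.0.16 in R 4.3.3. The scale of replicate 2 over replicate 1 was 1.14 by TMM, 1.13 by DESeq2 1.42.0 size factors and 1.32 by spike-ins. On data simulated from these libraries for this ratio, 93 of 93 genes changed 3-fold and 16 of 100 changed 1.25-fold lay past 1.5-fold, as did 91 of 12516 unchanged genes. Only genes with a mean of at least 100 simulated counts were measured. Every gene was given the same spread beyond counting error, a coefficient of variation of 0.092 fitted to these 2 libraries. Real genes need not share it, and 2.31% of all annotated genes with that count passed 1.5-fold. Coding sequences were read from the GENCODE M21 transcripts with Biopython 1.88. Python 3.11.15 was used for the other steps. Proteins were not analysed here, and some marker genes are not reported here.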

Additional observations from a re-analysis of the deposited data

How the results depend on the processing

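The number of members detected was 39 and ranged from 36 to 43 over a TPM minimum of 0.5 or 5, the kallisto table and TPM over nuclear protein-coding genes, and was 40 with either replicate left out. Members past 1.5-fold between replicates rose from 0 to 1 with spike-in scaling and to 5 with no count minimum, where 33.5% of all genes passed. Those 5, Rgs1, Rgs18, Gnat1, Gnat2 and Gnb3, had at most 4 counts per library. The median log2 replicate ratio of members turned from 0.12 to -0.089 with spike-in scaling.

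Shares moved by more than the replicate SD as follows. The Gnao1 share of alpha TPM, 39.4%, was 48.6% in the kallisto table, 35.4% in expected counts and 36.2% on protein-coding transcripts only. The Gnb1 share of beta TPM, 48.9%, was 62.1%, 67.5% and 62.7% in the same order. The Gng3 share, 18.4%, was 15.7% in counts and 19.1% on protein-coding transcripts. The R4 share, 49.6%, was 47.4%, 57.0% and 51.6%, and the R7 share, 22.6%, was 17.98% in counts and 17.98% on protein-coding transcripts. The restriction to protein-coding transcripts was added after seeing the data. Counts are not divided by length, which moves shares by construction. The cause of the difference between the RSEM and kallisto tables was not tested. Leaving out each replicate gave 38.8% to 39.97% for Gnao1, 48.8% to 48.9% for Gnb1, 18.2% to 18.7% for Gng3, 49.5% to 49.8% for R4, 21.2% to 23.9% for R7 and 25 to 26 members with the same leading transcript. That number, 25 of 33, was 30 when the leader was taken by estimated count and 31 of 39 at a mean of at least 1 TPM. Of 47 alternatives 31 stayed within set limits. The limits were 1.5 times the reported value for counts of members and the replicate SD for shares. For the median log2 ratio the limit was the median size of the members' ratios expressed as an SD. With 2 libraries, a share from either one always lies within the replicate SD, so leaving out a replicate could not move a share. The number detected, 39 of 50, could not pass its limit upward. The 31 are therefore no measure of robustness.

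No paired analysis was possible because the libraries form 1 group. Members under 100 counts, 13 of 50, have ratios too uncertain to read, and with 2 libraries an SD has little precision.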
